A study of Mus musculus with 4 samples.

Results

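Neuropeptides are cut from larger precursor proteins by convertases, packed into dense core vesicles and released to act on G protein-coupled receptors, often from neurons that also release GABA or glutamate. Cortical GABAergic interneurons, striatal projection neurons and hypothalamic neurons are commonly told apart by the peptide that they make. The genes described here are 32 neuropeptide precursor genes, taken by symbol from the 31017 gene symbols of the count tables. A UMI was recorded for 31 of them, in each of the 4 libraries. Kiss1, the kisspeptin precursor, has 2 rows and 0 UMIs in 52132 nuclei. By counting alone this allows a share of nuclei with a UMI of up to 0.00575%. The 2 rows overlap each other and Golt1a on the same strand, and what the overlap does to their counts was not tested. The 0 therefore sets no limit on Kiss1 RNA.

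The libraries hold single-nucleus RNA from whole brains of 2-month-old female C57/BL6 mice, untreated and perfused, 2 of them wild type (WT) and 2 heterozygous for Csf1r (Csf1r+/-, called HET here). Csf1r encodes the receptor for colony stimulating factor 1, on which microglia depend, and the study asked what the loss of one copy does to brain cells before symptoms. The study counted 3 mice per genotype; the third library of each was not analysed here, so every genotype comparison is of 2 against 2 libraries, each from 1 mouse, and the smallest two-sided exact permutation p that such a design allows is 0.33. Whole brain was dissociated, so regions are known only from the genes that nuclei express.

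After the filter of the study (500 to 50000 UMIs, more than 200 genes, under 5% mitochondrial UMIs), 16114 and 15247 nuclei remained for WT replicates 1 and 2 and 9589 and 11182 for HET replicates 1 and 2. Their totals were 88097109 to 111488169 UMIs, with a median of 4636 to 7454 UMIs per nucleus. Pairs of libraries shared 33 to 68 cell barcodes, at most 0.465% of the smaller library. In microglia-like nuclei the level of Csf1r was 844 and 864 CPM (UMIs per 1000000 UMIs of the same nuclei) in WT against 606 and 587 in HET, lower in both HET libraries. WT replicate 2 stood apart before any peptide was looked at: 1206 of its nuclei were oligodendrocyte-like against 322 to 443 in the others, and its median mitochondrial share before filtering was 0.703% against 0.147 to 0.278%.

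Of 25 members with a promoter in the RefSeq mouse table (GRCm38.p6, 28 promoters), 3 carried the full palindrome TGACGTCA, the cyclic AMP response element, within 250 bases before the start. Cyclic AMP signalling through this element is textbook knowledge for Sst. The 3 windows of 30 bases are shown because the same 8 letters, printed in capitals, stand in each. Sst lies on chromosome 16 (chr16:23890874-23890903, minus strand, with the motif 48 bases before the start), Cartpt on chromosome 13 (chr13:99900777-99900806, minus strand, 112 bases before the start) and Ucn on chromosome 5 (chr5:31138921-31138950, minus strand, 44 bases before the start).
Sst: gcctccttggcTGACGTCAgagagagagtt
Cartpt: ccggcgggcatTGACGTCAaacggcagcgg
Ucn: atgttcttcgcTGACGTCAgtcggagctgt

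The palindrome stood in 1.55% of the 32851 promoters of the table and in 10.7% of the members' promoters. Its first 5 letters, TGACG, searched on both strands and contained in the palindrome, stood in 17.8% of all promoters and in 16 of the 28 member promoters (57.1%, 14 members). A match of letters describes the sequence and does not show that a factor binds there. Penk, Pnoc, Crh, Grp, Agrp, Calcb and Gnrh1 were not matched in the table.

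A unique molecular identifier (UMI) marks 1 captured RNA molecule, and a level below is in CPM, counted over the UMIs of the same nuclei. The members held 60834 UMIs, and 50.8% of nuclei had at least 1. Levels over whole libraries are ordered by total: Cck 13913 UMIs, Agrp 12461, Sst 8103, Vip 4719, Npy 4043, Penk 3172, Tac1 2428, Cartpt 1329, Adcyap1 1129 and 977 for Grp. Another 16 members had 218 (Gnrh1) to 940 UMIs (Pnoc), and Calca, Ucn, Calcb, Nmu and Ghrh had 58 to 171. The levels are per molecule counted and not per base of gene, so the order is one of recovered UMIs.

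**Figure D1:**
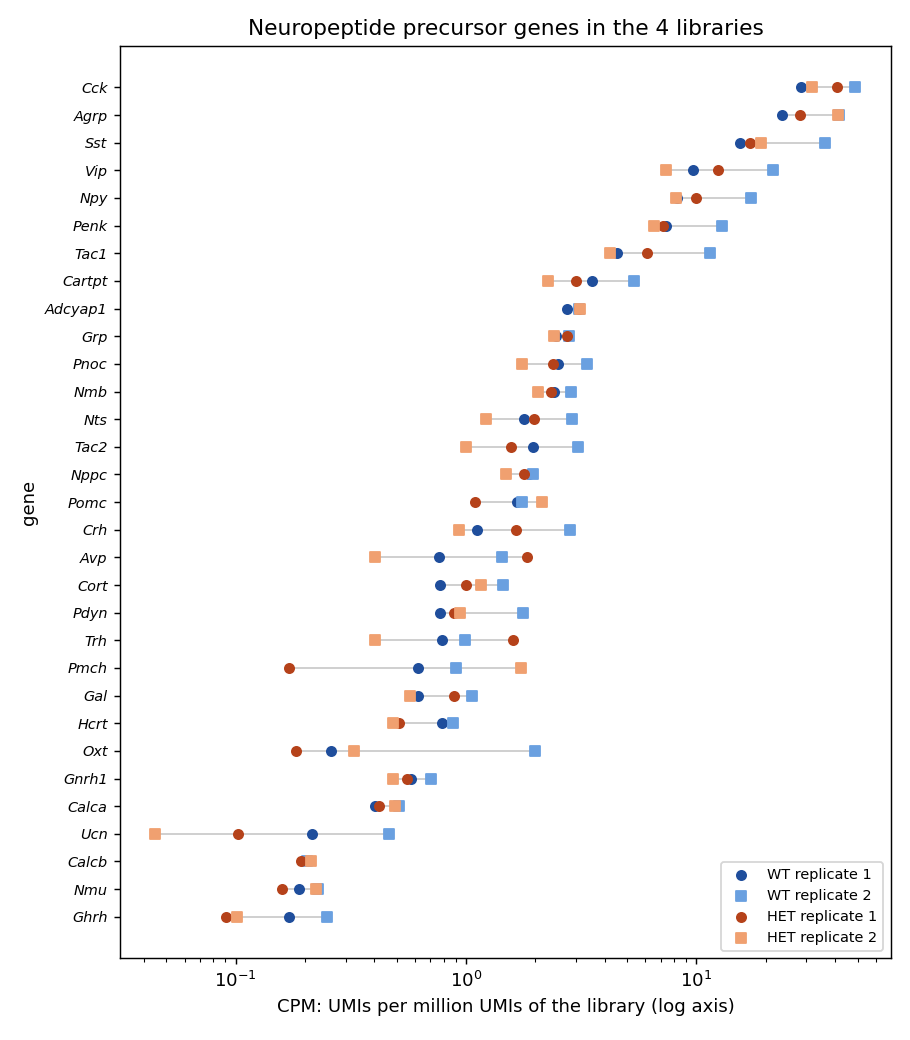
Level of each of the 31 detected genes in CPM over the library (x, log axis), one row per gene ordered by total UMIs, with 1 point per library. WT replicate 2 is the highest of the 4 points in 25 rows, and the spread within WT is often wider than the distance between genotypes.

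Few nuclei were rich in a peptide. A nucleus with 5 or more UMIs of a member is called rich in it, and 1165 nuclei (2.23%) were rich in at least 1 member. Their UMIs of the members that they were rich in made up 23.0% of all member UMIs. The share of a gene's UMIs that sat in rich nuclei separates the members. It was 73.1% for Vip (319 nuclei), 68.3% for Pmch (9 nuclei), 66.2% for Sst (445 nuclei), 55.5% for Avp (12 nuclei) and 49.5% for Npy (180 nuclei). It was 5.05% for Cck, 1.02% for Grp and 0.209% for Agrp, although Cck and Agrp lead by total. Of the 26 members with at least 200 UMIs, no nucleus was rich in Adcyap1, Pnoc, Nmb, Nppc, Pdyn or Gnrh1.

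**Figure D2:**
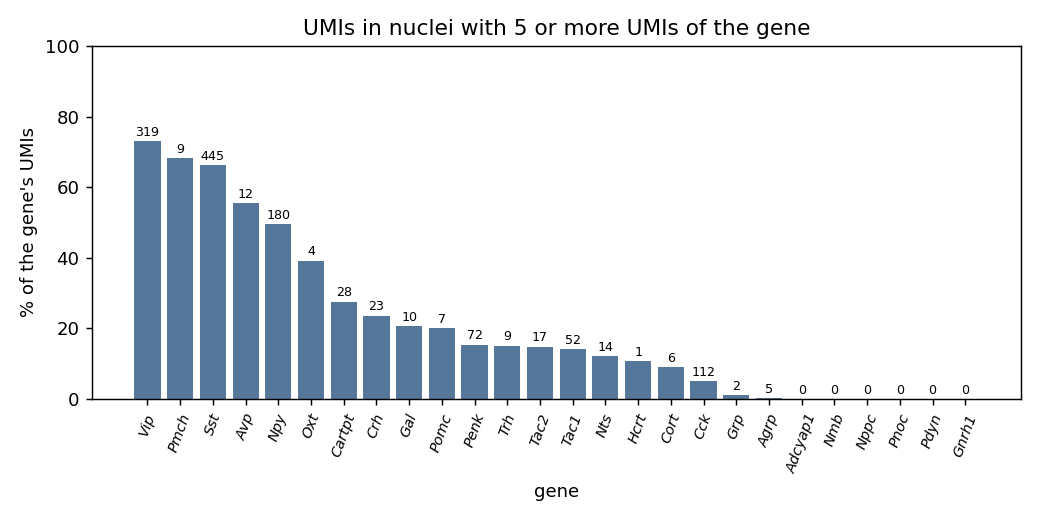
Share of each gene's UMIs (y, %) that lay in nuclei with 5 or more UMIs of that gene, for the 26 genes with at least 200 UMIs, with the number of such nuclei above each bar. Vip, Pmch and Sst stand above 60%, while Cck, with the most UMIs, stands at 5.05%.

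Nuclei were clustered without the members, so that a peptide could not place a nucleus, and clusters were named only from marker genes that exclude Sst and Vip. A carrier is a cluster of at least 50 nuclei whose level of a member was at least 5 times that of non-neuronal nuclei in each of the 4 libraries (a non-neuronal count under 3 was set to 3). Of 65 clusters, at least 1 carried each of 17 members. The rule is a ratio and not a test, and a class name that ends in -type or -like stands for markers only.

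Somatostatin (Sst) marks cortical interneurons that inhibit dendrites. Its carriers were 3 Sst-type clusters, named from genes such as Crhbp, Hpse, Moxd1 and Chodl, and a thalamic reticular-like cluster. The highest level was in the smallest of them, 91 nuclei led by Nos1, Adgrg6, Hhip, Tacr1 and Chodl: 1750 and 3370 CPM in WT and 1480 and 795 in HET. The 660 nuclei led by Lama4, Tnni3k and Crhbp reached 394, 866, 546 and 842 CPM in WT 1, WT 2, HET 1 and HET 2. The third, of 333 nuclei, reached 578, 1050, 554 and 684. Its name is the least certain, with 5 Sst-type, 4 Pvalb-type and 3 Vip-type markers, and in a coarser clustering (Leiden resolution 0.5) a cluster of 205 nuclei that shares its first leading gene was named Pvalb-type. Lower down stood the reticular-like cluster, at 49.9, 114, 70 and 95.4. WT replicate 2 was the highest library in all 4. Together these clusters held 67.8% of the Sst UMIs in 2.42% of the nuclei.

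Neuropeptide Y (Npy), an inhibitory peptide best known for appetite and seizure control, had 7 carriers and shared its highest with Sst. In the Nos1-led cluster its level was 1870 and 2010 CPM in WT and 1600 and 1110 in HET, and 92.3% of these nuclei had an Npy UMI, the same share as for Sst. A cluster of Lamp5-type interneurons, the neurogliaform group, came next: the one led by Pde11a, Kit and Egfr had 279, 460, 305 and 363 CPM. The Crhbp-led Sst-type cluster followed (148 over all libraries), then the Hapln1-led Lamp5-type one with 97.2, 74.5, 103 and 188. The remaining carriers were the other Sst-type cluster (80.4 over all libraries) and the Sncg-type and Vip-type ones (73.8 and 69.9). Among nuclei with at least 3 UMIs of a member, 177 had both Npy and Sst, which is 51.2% of the Npy nuclei and 24.1% of the Sst nuclei (32, 72, 32 and 41 by library). All counts of shared nuclei here and below take in clusters left unnamed for high doublet scores. Those clusters held 11.1% of the nuclei rich in Npy and 9.21% of those rich in Sst. What doublets add to the shared counts was not tested. The nucleus richest in Npy held 53 Npy and 39 Sst UMIs of 4355.

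Cortistatin (Cort), a close relative of somatostatin, was low throughout. It was carried by 2 Sst-type clusters (19.2 and 17.4 CPM) and by the main Pvalb-type cluster (16.4), which together held 60.3% of its 406 UMIs. Of the 21 nuclei with 3 or more Cort UMIs, 14 also had Sst at that level (66.7%) and 11 had Npy (52.4%). The Pvalb-type nucleus with the most Cort, 8 UMIs, held 9 UMIs of Tac1.

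Vasoactive intestinal peptide (Vip) marks interneurons that inhibit other interneurons. The 653 Vip-type nuclei, led by Prox1, Egfr, Igf1 and Grpr and named without Vip, had 955 and 1530 Vip CPM in WT and 1320 and 1100 in HET, and the genotypes overlap. They held 70.2% of all Vip UMIs in 1.25% of the nuclei, and 78.4% of them had a Vip UMI (55.8% after thinning each nucleus to 1000 UMIs). The Sncg-type cluster of 109 nuclei, led by Frem1 and Cnr1, was the other carrier at 157, 111, 500 and 172.

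The tachykinin Tac2 and the stress peptide gene Crh were highest in the Vip-type cluster. Tac2 was also carried by the Sncg-type cluster (25.1 CPM over all libraries) and Crh by the third Sst-type cluster (19.9). In Vip-type nuclei Tac2 was at 120, 150, 94.7 and 86.6 CPM and Crh at 66.8, 159, 120 and 84.5, in the order WT 1, WT 2, HET 1, HET 2. Of the 46 nuclei with 3 or more Crh UMIs, 33 (71.7%) had 3 or more Vip UMIs, and of the 68 such Tac2 nuclei 42 did (61.8%). Seen from Vip the shares are small, 6.88% and 8.75% of 480 nuclei. Both Tac2 and Crh reached 3 UMIs in 12 nuclei. Clusters with high doublet scores held 13.8% of the nuclei rich in Vip, 17.6% of those rich in Tac2 and 17.4% of those rich in Crh. Vip and Sst met in 2 nuclei, 0.417% of the Vip nuclei and 0.273% of the Sst nuclei.

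Cholecystokinin (Cck) had the most UMIs and only 1 carrier. The Sncg-type cluster, the textbook home of Cck basket cells, had 215, 270, 443 and 205 CPM but held only 1.22% of the Cck UMIs. Excitatory nuclei held 67.8% of them, against 56.0% of all UMIs, at 33.7 and 62.8 CPM in WT and 51.8 and 36.4 in HET. Non-neuronal nuclei had 16.5, 23.3, 14.3 and 17.1, so the ratio to them stayed under 5 in excitatory nuclei as a whole. Of Cck-rich nuclei, 14 were in layer 4-like, 11 in upper layer-like and 11 in Sncg-type clusters. Vip and Cck both reached 3 UMIs in 26 nuclei.

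Striatal projection neurons are told apart by peptide in textbooks. Enkephalin (Penk) marks those of the indirect pathway, and the tachykinin Tac1 and dynorphin (Pdyn) those of the direct pathway. The Drd2 cluster of 100 nuclei, led by Adora2a, Drd2 and Gpr6, had 298, 490, 740 and 439 Penk CPM, and 80.0% of its nuclei had a Penk UMI. The 2 clusters named Drd1 by Drd1, Isl1, Ebf1 and like genes carried Tac1: 389, 166, 217 and 272 CPM in the one led by Sipa1l2 (50 nuclei) and 29.8, 104, 73.6 and 83.4 in the one led by Ebf1 (92 nuclei). The Drd2 cluster of 100 nuclei held 1 Tac1 UMI (1.77 CPM) and did not carry it. All 118 Drd2 nuclei held 1, 9, 3 and 5 Tac1 UMIs by library. Nearly all of these lay in the Drd2-named nuclei outside that cluster, which were too few for the carrier rule. As for Penk in Drd1 nuclei, the Ebf1-led cluster had 29 Penk UMIs (61.0 CPM) beside 38 of Tac1 (79.9). The Sipa1l2-led one had 1 of Penk and 42 of Tac1. Neither Drd1 cluster carried Pdyn, with 7 and 2 UMIs.

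A striatal-like cluster of 76 nuclei, led by Adgrv1, Npffr2 and Tacr1 and named neither Drd1 nor Drd2, carried all 3 genes. It had 193 Penk, 111 Tac1 and 43.5 Pdyn CPM over all libraries, yet in all nuclei together only 4 held 3 or more UMIs of both Penk and Tac1. WT replicate 2 supplied most striatal nuclei: 70 of the 118 Drd2 and 72 of the 142 Drd1 nuclei. WT replicate 1 and HET replicates 1 and 2 held 29, 10 and 9 Drd2 nuclei and 23, 20 and 27 Drd1 nuclei. Their levels in these clusters, such as Penk in the Drd2 cluster, therefore rest on few nuclei.

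These genes were carried outside the striatal clusters too. Pvalb-type interneurons carried Tac1 at 45.2, 93.6, 55.7 and 46.5 CPM in their main cluster of 1204 nuclei, which held 18.3% of the Tac1 UMIs, more than all its striatal carriers. Penk had 6 carriers in all, not all of them described here. Among them were Vip-type nuclei (66.8, 82.0, 60.8 and 84.5 CPM). Pdyn was also carried by the Crhbp-led Sst-type cluster (12.9, 25.8, 17 and 16). Nociceptin (Pnoc), another opioid-family precursor, had 7 carriers, all inhibitory, the highest being the Hapln1-led Lamp5-type cluster (48.6, 149, 113 and 46.9). The thalamic reticular-like one (12.9, 39.2, 10.0 and 23.9) was lower, and 2 unnamed clusters were the lowest (16.0 and 12.1 over all libraries). No nucleus held more than 4 Pnoc UMIs.

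**Figure D3:**
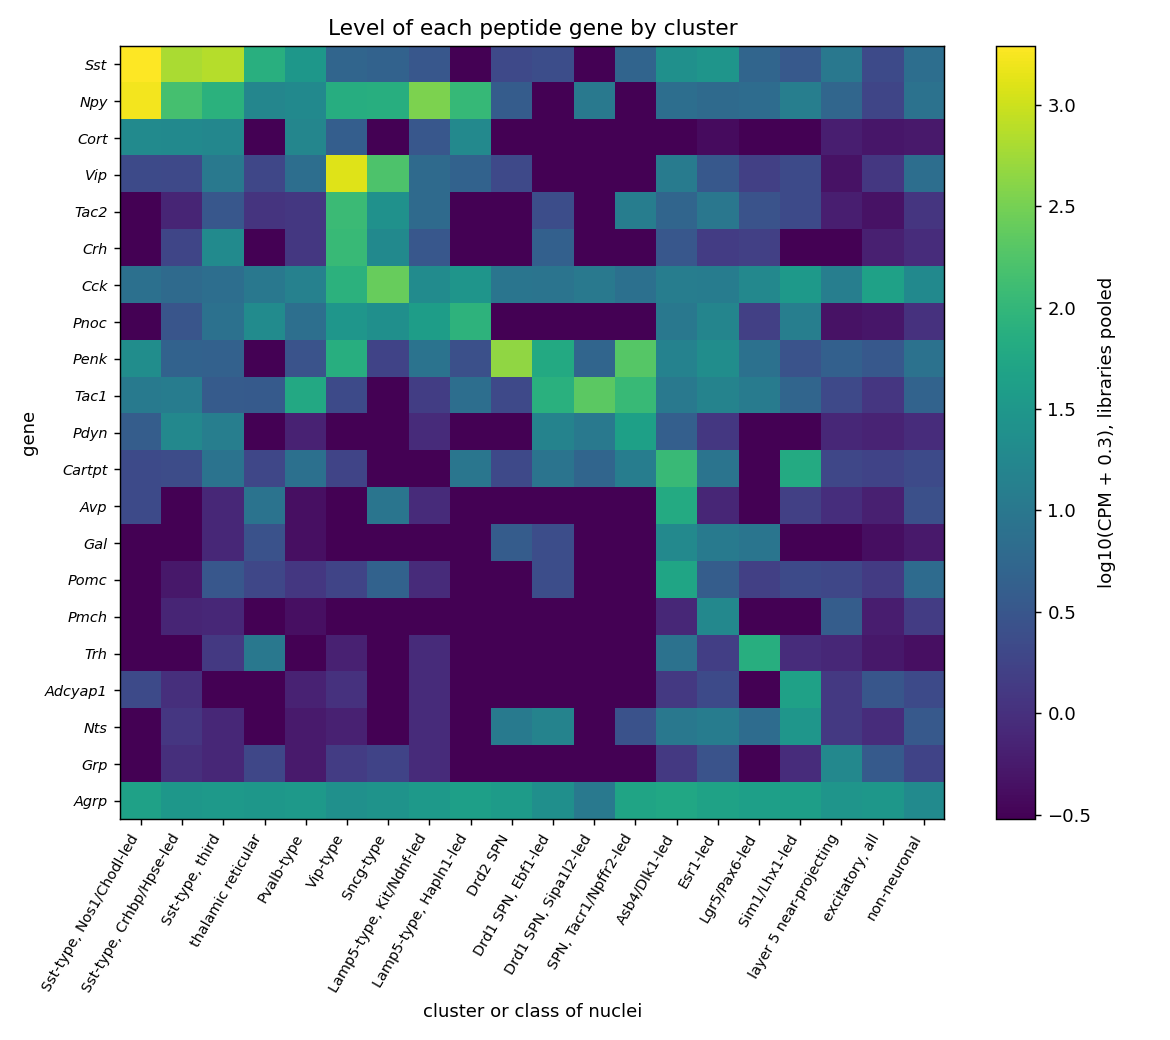
Level of 21 genes (rows) in 18 clusters, in all excitatory and in all non-neuronal nuclei (columns), the libraries pooled, as log10(CPM + 0.3). SPN stands for striatal projection neuron. Sst and Npy peak together in the Nos1-led column at 1950 and 1690, Vip in the Vip-type column at 1250, and the Agrp row is nearly flat.

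The hypothalamic peptides had few nuclei. An inhibitory cluster of 406 nuclei, led by Spag16, Asb4 and Dlk1, met 4 hypothalamic markers but had none among its 10 leading genes and so was left unnamed. It held 31.8% of the Avp UMIs, 29.5% of Ucn, 17.6% of Cartpt, 16.7% of Pomc, 13.1% of Gal and 12.3% of Hcrt. Only Cartpt (57.4, 231, 79.0 and 83.3 CPM), Avp (15, 52.2, 178 and 29.0) and Gal (8.20, 24.3, 30.7 and 14.5) passed the carrier rule there. Rich nuclei there numbered 9 for Cartpt, 7 for Avp, 5 for Pomc and 2 for Gal. Both Gal-rich nuclei were in HET replicate 1, and the 38 Gal UMIs were spread over 19 nuclei.

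Melanin-concentrating hormone (Pmch) was found mainly in another cluster. A cluster of 2452 nuclei with Esr1 among its leading genes held 59.9% of the Pmch UMIs. It also held 38.8% of the UMIs of galanin (Gal), at a lower level (10.6 CPM over all libraries) than in the Asb4-led cluster (18.6). In that cluster Pmch was at 14.2, 12.4, 0 and 50.8 CPM, and 0.449% of nuclei had a UMI, 6 of them rich. One HET nucleus held 57 Pmch UMIs of 5677, with 4 of Cartpt. The split into an Asb4-led and an Esr1-led cluster depends on the resolution. At Leiden resolution 0.5, 90.6% of the Asb4-led nuclei and 87.4% of the Esr1-led ones fell in the same cluster of 2647 nuclei. The leading clusters of Avp, Cartpt, Pomc, Oxt and Hcrt were then others.

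The stimulant CART peptide gene (Cartpt) and urocortin (Ucn), a relative of Crh, met in the same nuclei. All 4 nuclei with 3 or more Ucn UMIs (100%) also had at least 3 of Cartpt, 1 in WT replicate 1, 2 in WT replicate 2 and 1 in HET replicate 1. The pairs were 9 Ucn with 50 Cartpt UMIs, 7 with 19 and 6 with 27, and a nucleus with 38 Cartpt held 5 Ucn. Of these 4, 3 lay in the Asb4-led cluster and 1 in a cluster with high doublet scores.

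Other peptides showed how far 1 nucleus can carry a gene. Oxytocin (Oxt) had 250 UMIs, of which 44 came from 1 barcode of WT replicate 2 with 643 UMIs in all, in an unnamed low-UMI cluster, and 40 from another nucleus of that library. Hypocretin (Hcrt) had 1 rich nucleus, with 27 UMIs, in WT replicate 1. Thyrotropin-releasing hormone (Trh) was carried by 214 nuclei led by Lgr5 (32.2, 94.6, 96.3 and 65.5 CPM). Of its 9 rich nuclei, 8 were in HET replicate 1, the library with the highest median depth (7454 UMIs per nucleus).

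A cluster of 290 neurons led by Sim1, Myo5b and Lhx1, hypothalamic-like by 3 markers, carried Adcyap1 and Cartpt (3 carriers, not all described). Its Cartpt level was 71.3, 70.3, 72.0 and 40.2 CPM, spread over 29.0% of its nuclei with none rich, unlike the Asb4-led cluster, where 8.87% had a UMI. Its level of Adcyap1, the precursor of PACAP, was 28.5, 58.2, 72.0 and 18.5. Gastrin-releasing peptide (Grp) had 1 carrier, the layer 5 near-projecting-like cluster (15.6, 16.5, 25.7 and 14.4), and excitatory nuclei held 70.5% of its UMIs. Neurotensin (Nts), Nmb, Nppc, Pomc, Oxt, Hcrt, Pmch, Gnrh1 and Agrp, and the lower Calca, Calcb, Ghrh, Ucn and Nmu, had no carrier. For Pomc the rule is strict. It reached 51.5 CPM over all libraries in the Asb4-led cluster, against a non-neuronal level of 12.4, 1.28, 4.02 and 11.7 that came mostly from endothelial-like nuclei.

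Agouti-related peptide (Agrp) is known from a small set of arcuate neurons, yet a UMI of it was recorded in 19.7% of nuclei. Its level was 21.2, 42.0, 27.6 and 38.0 CPM in excitatory and 27.6, 43.6, 32.1 and 48.6 in inhibitory nuclei. The split of its UMIs, 53.2% excitatory and 17.9% inhibitory, was near that of all UMIs (56.0% and 15.9%), and 5 nuclei were rich in it, with at most 6 UMIs. The Asb4-led cluster was its highest at 54.9 CPM, against 53.2 in the next. The annotated gene runs over 70696 bases of chromosome 8 (GRCm38, 105566698 to 105637393, minus strand), 98.6% of them intronic, and it overlaps Gm5914 on the same strand and Ripor1 and Ctcf on the other. Which transcript gave these UMIs was not tested, so the Agrp values are uncertain. Nmb overlaps Sec11a on the same strand, and Kiss1 overlaps Golt1a, with the same limit.

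Non-neuronal nuclei were taken to give the level of free RNA, which may not hold for members that are high in endothelial-like nuclei, such as Pomc, Nts and Nmb below. They were 676 microglia-like, 2314 oligodendrocyte-like and 775 endothelial-like nuclei, with a median depth of 1659 UMIs. Sst was at 5.15, 8.95, 6.31 and 5.44 CPM there, and 1.35% of these nuclei had a UMI of it (0.735% after thinning to 1000). In excitatory nuclei, at a median depth of 6998 UMIs, 1.27% had an Sst UMI (0.212% thinned), which is at or below that background and is not read as expression. In inhibitory nuclei (median 4084) the share was 10.9% (5.25% thinned). The same held for Vip: 0.983% of non-neuronal, 0.566% of excitatory and 5.71% of inhibitory nuclei, and for Npy: 1.54%, 1.19% and 7.80%.

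Free peptide RNA was not even between libraries. Npy in non-neuronal nuclei was at 5.15, 13.4, 4.59 and 3.89 CPM, highest in WT replicate 2, as were Sst and Cck. Against the whole-library level, WT replicate 2 was highest for Npy (77.9%) but lowest for Sst (24.9%). For Cck (47.6%) it lay between the others. For Vip, 3 endothelial-like nuclei rich in it raised WT replicate 2 from 3.86 to 9.91. Without rich nuclei Vip was at 5.66, 3.86, 5.74 and 3.11, and WT replicate 2 was not the highest. Calca had 0 UMIs in the 3765 nuclei, which allows a share of up to 0.0797%.

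Pomc, the precursor of melanocortins and endorphin, was found mainly in endothelial-like nuclei among the non-neuronal ones. Of its 50 UMIs there, 44 were in endothelial-like nuclei, at 22.5, 5.31, 11.1 and 33.8 CPM, against 1.67, 1.75, 1.09 and 2.14 over whole libraries. They were spread over 36 of 775 nuclei (4.65%), none of them rich. Other members were above their whole-library level in these nuclei too: Nts with 18 of 26 non-neuronal UMIs (226 to 640% of that level by library) and Nmb with 15 of 28 (243 to 285%), beside 303 to 1580% for Pomc. The Pomc levels of the genotypes overlap, and the source of these UMIs was not tested. In the coarser clustering, 21.7% of the 775 endothelial-like nuclei had high doublet scores.

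Turning to genotype, no member passed an adjusted p of 0.05 in any of 8 fits (edgeR's quasi-likelihood test, Benjamini-Hochberg adjustment over all genes of the fit). Over whole libraries, 31 members were among 23027 genes tested. The share of all genes called was 0%, and DESeq2 called no member either. At an unadjusted p under 0.05 were 4 members, read against 2.59% of all genes: Ucn, Tac2, Cartpt and Oxt, all lower in HET. Sums over a library cannot tell fewer cells of a type from less RNA per cell.

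Ucn had 24 and 41 UMIs in WT and 9 and 4 in HET, and the groups do not overlap. Its log2 fold change was -2.10 ± 0.58 (SE; edgeR adjusted p = 0.9998). Cartpt was at 3.51 and 5.35 CPM in WT and 2.99 and 2.27 in HET (log2 -0.67 ± 0.26, edgeR adjusted p = 0.9998). Tac2 was at 1.95 and 3.06 against 1.57 and 0.996 (log2 -0.89 ± 0.33, edgeR adjusted p = 0.9998). For Oxt, 0.26, 2.00, 0.182 and 0.325 show that WT replicate 2 alone was high, and without that library its log2 fold change was -0.04 instead of -2.02.

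Both HET libraries were below both WT libraries for 10 members (Cartpt, Ghrh, Gnrh1, Hcrt, Nmb, Nppc, Penk, Pnoc, Tac2 and Ucn) and for 20.9% of all genes tested. Adcyap1 was the 1 member with both HET libraries above (2.74 and 3.09 in WT, 3.1 and 3.12 in HET), as were 6.74% of all genes. WT replicate 2 was the highest library for 25 members and for 47.6% of all genes.

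The members' median log2 fold change was -0.23, beside 0.00 for all genes tested. That median rested on 1 library: without WT replicate 2 it was 0.04, and without HET replicate 1 it was -0.48. Of the 26 members with at least 200 UMIs, 19 were lower in HET and 7 higher, and without WT replicate 2 the split was 11 and 15. The interneuron and striatal genes show the pattern in their levels. Sst was at 15.5 and 36 CPM in WT and 17.1 and 19 in HET, Vip at 9.66, 21.5, 12.4 and 7.40, and Npy at 8.24, 17.2, 10.0 and 8.17. Penk was at 7.36, 12.9, 7.18 and 6.52 and Tac1 at 4.52, 11.5, 6.08 and 4.20. Their log2 fold changes were -0.42 ± 0.31, -0.56 ± 0.36, -0.39 ± 0.29, -0.48 ± 0.24 and -0.54 ± 0.38. Cck and Agrp were near 0 (-0.01 ± 0.23 and 0.17 ± 0.25).

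**Figure D4:**
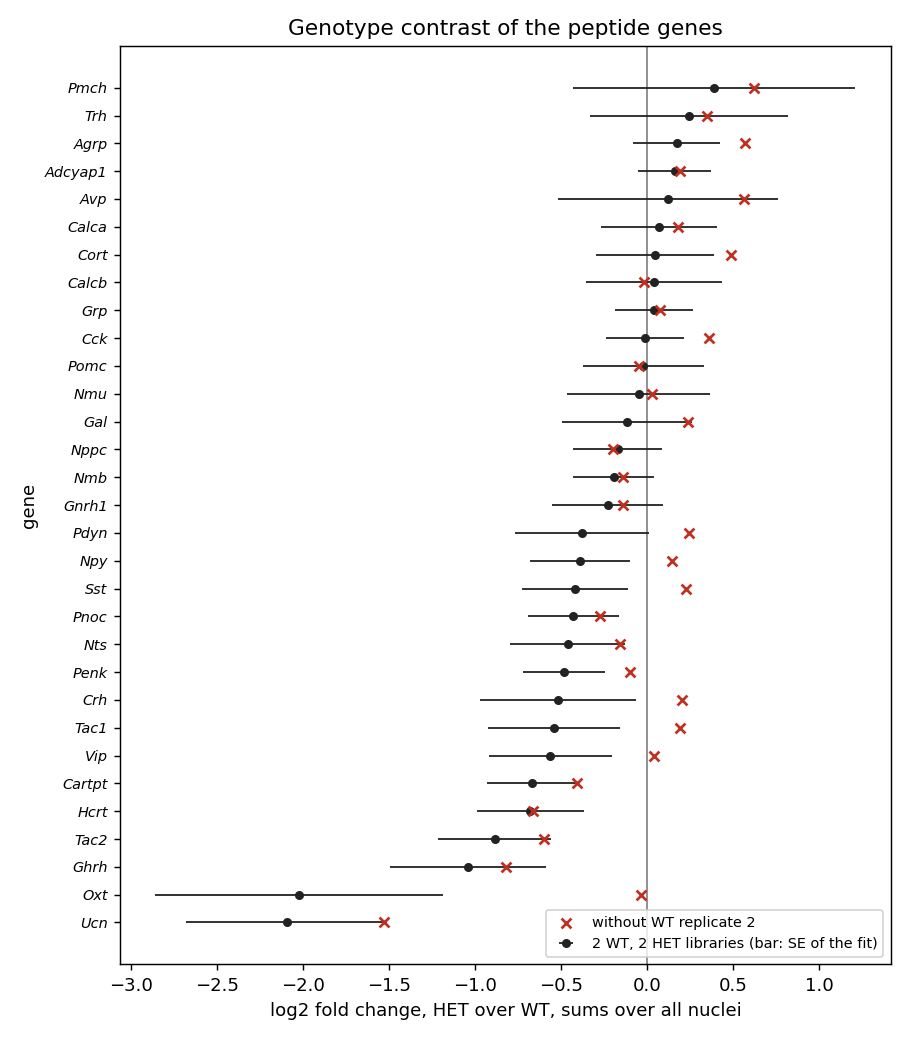
Log2 fold change of HET over WT (x) for the 31 genes in sums over all nuclei, with the SE of the edgeR fit as a bar and, as a cross, the value without WT replicate 2. Sst, Vip, Npy, Tac1 and Crh move from below 0 to above 0 when that library is left out.

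Nuclei rich in Sst, Vip or Npy were most numerous in WT replicate 2. Sst-rich nuclei numbered 95, 168, 94 and 88 (59, 110, 98 and 78.7 per 10000 nuclei), and Vip-rich nuclei 77, 125, 74 and 43 (47.8, 82, 77.2 and 38.5 per 10000). This did not hold for all members. Per 10000 nuclei, HET replicate 1 was above WT replicate 2 for Cck (31.3 against 27.5) and Tac1 (18.8 against 14.4). It held 6 of the 12 Avp-rich nuclei. The limit of 5 UMIs does not scale with depth, and the median per nucleus was 7454 UMIs in HET replicate 1 against 4636 in WT replicate 2. In whole-library CPM, HET replicate 1 was below WT replicate 2 for Cck (40.9 against 49.0) and Tac1 (6.08 against 11.5). For Avp it was above (1.84 against 1.43). What depth adds to the counts of rich nuclei was not tested. For peptides of few nuclei the whole-library level followed those nuclei. In HET replicate 2, Pmch was at 1.74 CPM, against 0.619, 0.908 and 0.17 in the others, and 129 of its 155 UMIs (83.2%) came from 3 nuclei. In HET replicate 1, Avp was at 1.84 against 0.762, 1.43 and 0.403, with 98 of 162 UMIs (60.5%) in 3 nuclei. With rich nuclei left out, an alternative chosen after seeing the data, the log2 fold change of Pmch went from 0.39 to -0.66 and that of Avp from 0.12 to -0.96.

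Within their carrier classes, Sst, Npy and Vip had log2 fold changes closer to 0 than over whole libraries, a difference that was not tested. Sst in Sst-type nuclei (1084 nuclei) was at 532, 1150, 633 and 791 CPM, log2 -0.19 ± 0.24, and Npy in them at 192, 336, 245 and 227, log2 -0.11 ± 0.20. Vip in Vip-type nuclei had a log2 fold change of 0.00 ± 0.20, and Npy in Lamp5-type nuclei (235, 384, 262 and 337) one of 0.00 ± 0.21. Both HET values lie between the WT values in each of these 4.

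Penk in Drd2 nuclei (259, 460, 465 and 280 CPM) gave -0.05 ± 0.34 on 47, 165, 31 and 16 UMIs, and Tac1 in Pvalb-type nuclei (43.7, 88.2, 53.2 and 45.1) gave -0.39 ± 0.24. Crh in Vip-type nuclei gave -0.11 ± 0.28, and Tac1 in Drd1 nuclei gave 0.52 ± 0.42 on 80 UMIs in all. Among the class values drawn below, Tac2 in Vip-type nuclei was the 1 whose genotypes did not overlap. The share of all genes with both HET below both WT libraries was computed for whole libraries only (20.9%). It was at 120 and 150 in WT and 94.7 and 86.6 in HET (log2 -0.54 ± 0.21, edgeR adjusted p = 0.9999). Single carrier clusters, which were not fitted on their own, could differ from their class. In the Nos1-led cluster (91 nuclei), Sst and Npy were lower in both HET libraries than in both WT libraries. In the Sncg-type cluster (109 nuclei), Vip was higher in both HET libraries, on 115 UMIs in all. The share of all genes that do so in single clusters was not computed, so neither is read as a result. The shares of all genes at an unadjusted p under 0.05 were 3.88% in Sst-type, 4.41% in Vip-type, 4.07% in Lamp5-type, 4.45% in Pvalb-type, 3.53% in Drd1 and 5.3% in Drd2 nuclei. The shares called were 0% in Sst-type, Lamp5-type and Drd1, 0.0174% in Vip-type, 0.0219% in Pvalb-type and 0.103% in Drd2 nuclei. Of 14, 10, 8, 13, 3 and 3 members tested in Sst-type, Vip-type, Lamp5-type, Pvalb-type, Drd1 and Drd2 nuclei, 2, 2, 0, 2, 0 and 1 were at an unadjusted p under 0.05.

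**Figure D5:**
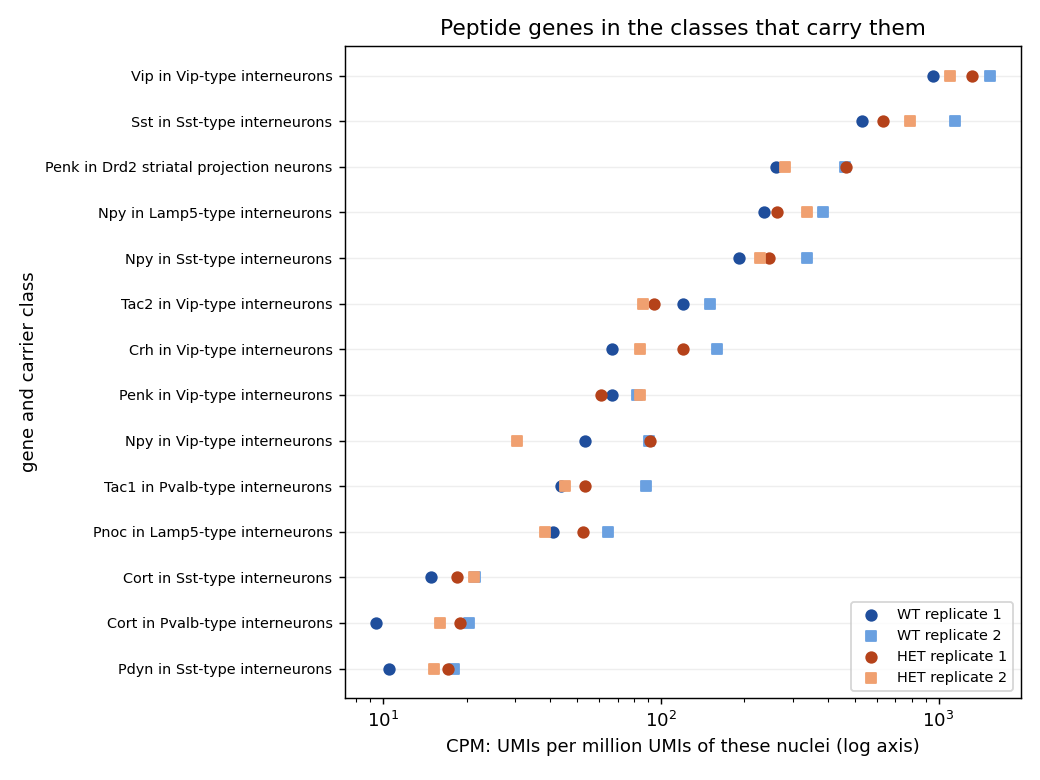
Level in CPM of the class (x, log axis) of members in the fitted classes that carry them, where the class held enough UMIs of the member, with 1 point per library. Tac1 in Drd1 nuclei and the Sncg-type cluster are not drawn. HET points lie among or between WT points in most rows, and Tac2 in Vip-type interneurons is the row where both HET points are below both WT points.

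The lowest p values came from members outside their carriers. Vip in Pvalb-type nuclei had 13 and 36 UMIs in WT and 3 and 1 in HET (log2 -3.43 ± 0.75, edgeR adjusted p = 0.215). A single nucleus held 12 of the 13 and another 29 of the 36, and without rich nuclei the levels were 0.429 and 3.86 CPM in WT and 1.63 and 0.519 in HET. Of the 26 Vip UMIs of WT replicate 1 in Sst-type nuclei, 19 were in 1 nucleus. The other libraries there had 2, 2 and 0. Tac1 in Drd2 nuclei, with the 1, 9, 3 and 5 UMIs given above, was the 1 such member with a higher value in HET (log2 1.74 ± 0.83, edgeR adjusted p = 0.887). Only 1 of these UMIs lay in the Drd2 cluster of 100 nuclei.

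In excitatory neurons, 31 members were tested and 4 were at an unadjusted p under 0.05, all lower in HET: Sst, Tac1, Ucn and Ghrh (3.1% of all genes; 0% were called). Sst was at 1.90 and 3.40 CPM in WT and 1.06 and 1.33 in HET (log2 -1.05 ± 0.34, edgeR adjusted p = 0.9998), where a single WT nucleus had 30 UMIs. These Sst levels lie below those of non-neuronal nuclei in every library. So do the Tac1 levels, at 0.668 and 2.31 CPM in WT and 0.589 and 0.457 in HET. Ucn rested on 10, 10, 2 and 2 UMIs by library and Ghrh on 5, 6, 2 and 1.

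Receptors for the peptides gave no call between genotypes either. Of 48 listed receptors, 46 were tested over whole libraries and 0 were called; Ntsr2 and Calcrl were at an unadjusted p under 0.05, both lower in HET, and the median log2 fold change was -0.08. Ntsr2, a neurotensin receptor, was at 2.13, 5.64, 1.95 and 1.63 CPM, high in WT replicate 2 alone. Calcrl, the CGRP receptor subunit, was at 3.59 and 4.05 in WT and 2.31 and 2.04 in HET (log2 -0.75 ± 0.22, edgeR adjusted p = 0.9998).

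By UMIs the leading receptors were the mu opioid receptor Oprm1 (75.3, 98.8, 82.3 and 102 CPM), the Crh receptor Crhr1 (28.2, 24.8, 31.8 and 29.5), the accessory protein Ramp1 (24.4, 28.1, 28.3 and 26.5) and the PACAP receptor Adcyap1r1 (23.6, 29.5, 27.1 and 22.5). Of 20 processing and vesicle genes, 19 were tested, 0 were called and 0 were at an unadjusted p under 0.05, with a median log2 fold change of 0.03. By UMIs the first 4 were led by Cadps: the vesicle priming factor Cadps was at 1090 to 1210 CPM, the prohormone convertase Pcsk2 at 865 to 1030, the vesicle protein Ptprn2 at 828 to 870 and the amidating enzyme Pam at 476 to 515. The genotypes overlapped for the first 3. Pam was at 476 and 494 in WT and 515 and 499 in HET (log2 0.13 ± 0.12, edgeR adjusted p = 0.9998).

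Within classes no listed receptor or processing gene was called. In excitatory neurons 40 were tested and 4 were at an unadjusted p under 0.05, all lower in HET (Sstr2, Oprk1, Tacr1 and Calcrl). In Sst-type nuclei none of 29 reached it, while Cpe and Cadps2 of 19 processing genes did, both lower. In Vip-type nuclei Pcsk1 and Pcsk1n of 19 did, 1 in each direction. In Pvalb-type nuclei Oprm1 of 19 receptors did, lower in HET, as did Pcsk2 and Chga of 19 processing genes, 1 in each direction. In Lamp5-type nuclei Ctsl of 19 processing genes did, lower in HET, and in Drd1 and Drd2 nuclei none of either list did.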

How the data were processed

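Single-nucleus RNA was counted in 4 libraries. Per the labels and the study's methods, the authors isolated nuclei without detergent, depleted myelin, made 3′ droplet libraries and counted them with Cell Ranger against mm10. The deposited files give raw counts of UMIs, one whole number for each gene in each called nucleus, with no filter or scaling. Libraries total 88097109 to 111488169 UMIs after filtering, so 3 UMIs, the floor used here, are 0.959 to 2.33 CPM in non-neuronal nuclei. Floors cover counting error only.

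The members, the receptor and processing lists, and the tests were chosen with earlier results of these data known. All 32 members are accounted for, and those with at least 200 UMIs are given with values by library. Of the other lists, called genes are named or, where none was called, the 4 with the most UMIs and those at an unadjusted p under 0.05, the last chosen after their values were seen.

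Nuclei were clustered with 3000 variable genes that leave out the members, 30 principal components, 20 neighbours and Leiden resolution 1 (leidenalg 0.10.2, Python 3.11.15, numpy 2.4.6, seed 1). Inhibitory clusters were subclustered, and striatal ones once more. That step and the naming thresholds were chosen with the clusters in view. To be named, a cluster needed 3 markers of a type, each found in 10% of its nuclei and 2 times as high as elsewhere, with at least 1 among its 10 leading genes and no other type holding more there; the type with the largest share of its markers gave the name. Clusters with over 50% of nuclei at high doublet scores were left unnamed, and no nucleus was removed as a doublet.

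Counts were summed per library for 8 sets of nuclei and tested with edgeR 4.0.16 (TMM, quasi-likelihood, two-sided, genotype only) under R 4.3.3 with limma 3.58.1, on genes with at least 10 UMIs. DESeq2 1.42.0 was an alternative. The fits were tested on simulated data: in whole libraries 51% of 2-fold and 94% of 4-fold changes were recovered, in Sst-type nuclei 69% and 100%, and in Vip-type nuclei 51% and 100%. The changed genes all had at least 100 UMIs in the data, and their spread followed the trend over genes. These rates do not cover members with fewer UMIs, such as Ucn (78 over whole libraries) or Vip in Sst-type nuclei (30). Nor do they cover UMIs that clump in single nuclei. No pair of libraries was a duplicate (chi-square per degree of freedom 38.4 to 103.3). Replicate numbers name mice only. Each library is 1 mouse, so p-values measure the spread between these mice. Positions are from GENCODE (GRCm38) and promoters from RefSeq (GRCm38.p6). Peptide overlaps on the opposite strand (Penk, Pmch, Grp, Nmu) were not resolved.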

Additional observations from a re-analysis of the deposited data

Results flagged for a closer look

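Barcodes that did not pass the nucleus filter, which the comparisons do not use, held 1134 UMIs of the members: 149 (WT replicate 1), 612 (WT replicate 2), 271 (HET replicate 1) and 102 (HET replicate 2). Nearly all of these barcodes had a mitochondrial share of 5% or more. The members' level in them was 202, 375, 210 and 210 CPM, against 126, 232, 152 and 144 in the nuclei kept. The richest held 22 UMIs of a member, in HET replicate 1. With 2 libraries per genotype, no group was large enough to test a library as an outlier.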

How the results depend on the processing

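The count of members called was 0 in all 8 fits, and it stayed 0 in whole libraries, excitatory neurons and Vip-type, Lamp5-type, Drd1 and Drd2 nuclei under every alternative that kept all libraries and the adjusted threshold. In Pvalb-type nuclei it was 1 with the likelihood-ratio test, where 30 of 13699 genes were called. With genes of at least 1 UMI it was 2 (81 of 19547 genes called). At Leiden resolution 0.5 it was 1 (6 of 13994), and with a replicate block it was 1 (46 of 13699). In Sst-type nuclei it was 1 with genes of at least 1 UMI (60 of 19656). Vip is among each of these calls, and rich single nuclei hold most of its UMIs there. At an unadjusted p under 0.01, 1 member was called in whole libraries (58 of 23027 genes). It was 1 in excitatory neurons (109 of 21128 genes) and 1 in Pvalb-type nuclei (159 of 13699 genes). With 1 library left out, only log2 fold changes are given. They ranged from -2.84 to -0.04 for Oxt in whole libraries. In Sst-type nuclei they ranged from -2.18 to -0.11 for Cck and from -6.68 to -2.49 for Vip. In Pvalb-type nuclei they ranged from -4.38 to -2.38 for Vip and from -1.69 to -0.15 for Sst. The lone sample is then assumed to vary like the other group.

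Replicate numbers 1 and 2 are shared by the genotypes, but same-numbered libraries deviated together with a correlation of 0.0391, so the numbers were not taken to pair the mice. The replicate block gave 0 called members in 7 fits and 1 in Pvalb-type nuclei, and it turned the log2 fold change of Cck to 0.0106, of Avp to -0.13 and of Pmch to -0.16 in whole libraries.

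Of 38 log2 fold changes followed, 435 of 501 recomputed values kept their direction and side of the threshold. Values near 0 changed sign. Npy in Lamp5-type nuclei went to -0.0164 with DESeq2, -0.0153 with RLE size factors, -0.0428 with library totals alone, -0.0697 with genes of at least 1 UMI, -0.0479 with the 10% detection filter, -0.0016 with nuclei of at least 1000 UMIs and -0.0459 at resolution 0.5. Vip in Vip-type nuclei went to -0.0370 with library totals, -0.0255 with genes of at least 1 UMI, -0.0148 with the detection filter, -0.0454 without high doublet scores and -0.0258 at resolution 0.5. Penk in Drd2 nuclei went to 0.0023 with DESeq2 and 0.0334 with library totals, and in Vip-type nuclei to 0.0067 with DESeq2. Leaving out a member's rich nuclei gave Cck 0.0045, Avp -0.96 and Pmch -0.66 in whole libraries.

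With 1 library left out, whole-library log2 fold changes ranged from -0.30 to 0.36 for Cck, -0.13 to 0.57 for Agrp, -0.86 to 0.22 for Sst, -0.998 to 0.0389 for Vip, -0.78 to 0.15 for Npy, -1.02 to 0.19 for Tac1, -1.37 to 0.84 for Avp, -2.07 to 1.25 for Pmch, -0.77 to -0.10 for Penk, -0.90 to -0.41 for Cartpt and -1.26 to -0.59 for Tac2. In excitatory neurons they ranged from -2.01 to -0.37 for Tac1 and from -1.37 to -0.69 for Sst. In Sst-type nuclei the ranges were -0.61 to 0.41 for Sst, -0.43 to 0.29 for Npy, -0.0358 to 0.40 for Cort and -0.0677 to 0.61 for Pdyn. In Vip-type nuclei they were -0.25 to 0.34 for Vip, -0.54 to 0.62 for Crh, -1.19 to 0.34 for Npy and -0.28 to 0.25 for Penk. In Lamp5-type nuclei they were -0.31 to 0.33 for Npy and -0.44 to 0.14 for Pnoc, in Pvalb-type nuclei -0.16 to 0.84 for Cort and -0.78 to 0.12 for Tac1, and in Drd2 nuclei -0.48 to 0.52 for Penk.

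The leading cluster was the same for 25, 23 and 16 of 26 members with nuclei of at least 1000 UMIs, without high doublet scores and at resolution 0.5. At resolution 0.5 it changed for Tac1, Cort, Nts, Cartpt, Avp, Oxt, Hcrt, Pomc, Agrp and Nppc. The cause of these changes was not tested. Depth limits the rare members: 17 of the 26 members with at least 200 UMIs had under 1000 in all, and for Pmch in HET replicate 2, 83.2% of the UMIs came from 3 nuclei.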
